A study of Homo sapiens with 10 samples.

Results

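The anaphase-promoting complex regulators and securin were represented by 8 genes, namely the co-activators CDC20 and FZR1, the inhibitor FBXO5, the ubiquitin-conjugating enzymes UBE2C and UBE2S, the checkpoint protein MAD2L1, securin (PTTG1) and separase (ESPL1). They are 8 of the 19962 protein-coding genes of the annotation, and their peaks were those that lay from 2000 bp upstream to 500 bp downstream of any GENCODE release 44 start of the gene. Rb, the retinoblastoma protein, had been profiled by CUT&RUN, in which an antibody guides a nuclease to its target on chromatin and the released DNA is sequenced. OVCAR-3 and Kuramochi, established human high-grade serous ovarian cancer lines that the labels give as wild type, received either DMSO, the solvent, or 300 nM of INX-315, which inhibits CDK2, for 2 days. All 4 groups comprised 2 Rb libraries from 1 experiment, and IgG2a served as control in 1 library of DMSO-treated cells of each line, so p-values measure the spread between these libraries. The peak lists hold no expression values, and the identity of the lines was not checked here.

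The anaphase-promoting complex (APC/C) is the ubiquitin ligase that lets cells leave mitosis. CDC20 and later FZR1 (also called CDH1) bring it to its substrates, UBE2C starts ubiquitin chains and UBE2S extends them, while FBXO5 (EMI1) holds the enzyme off until mitosis and MAD2L1 (MAD2) sequesters CDC20 until chromosomes are attached. Destruction of securin frees separase, which cuts cohesin and lets sister chromatids part. Most of these genes peak in expression in late cell cycle stages, and Rb family proteins repress cell cycle genes through E2F sites, or through the MuvB complex at a promoter string called the cell cycle genes homology region (CHR), which is often found with CCAAT boxes that bind NF-Y.

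The stretches just before the annotated starts of CDC20, FBXO5, ESPL1 and PTTG1 are shown because they are the ones that hold a CHR or CCAAT string within 150 bases of the start. RefSeq promoter sequences (GRCh38.p14) matched 7 of the 8 genes at the start of the MANE transcript, the representative transcript of a gene, and UBE2C had no entry. Each line gives the 150 bases before the start, 5′ to 3′ on the strand of the gene, and capitals mark every CHR (TTTGAA or TTCGAA) or CCAAT box (CCAAT) on either strand, so that TTCAAA and ATTGG are their reverse complements and overlapping boxes run together. The stretches are chr1:43358831-43358980, chr6:152983042-152983191, chr12:53268149-53268298 and chr5:160421705-160421854, on the plus strand except for FBXO5.
CDC20: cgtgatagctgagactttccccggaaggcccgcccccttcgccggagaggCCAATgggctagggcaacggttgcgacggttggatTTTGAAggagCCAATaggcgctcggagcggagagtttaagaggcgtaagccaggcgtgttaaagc
FBXO5: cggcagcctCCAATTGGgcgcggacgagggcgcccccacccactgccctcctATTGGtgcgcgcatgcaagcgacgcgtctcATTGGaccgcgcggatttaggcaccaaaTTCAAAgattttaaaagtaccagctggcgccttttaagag
ESPL1: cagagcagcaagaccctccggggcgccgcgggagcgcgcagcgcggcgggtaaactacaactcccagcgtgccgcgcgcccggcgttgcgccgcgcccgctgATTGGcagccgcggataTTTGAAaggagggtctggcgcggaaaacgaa
PTTG1: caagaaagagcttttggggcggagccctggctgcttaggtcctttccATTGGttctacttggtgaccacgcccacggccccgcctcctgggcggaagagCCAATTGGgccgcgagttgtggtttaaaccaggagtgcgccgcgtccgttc

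CDC20 held a CHR at -65 bp between CCAAT boxes at -100 and -55 bp, counted from the first base of the string to the start. In FBXO5 the CHR lay at -40 bp, below 4 CCAAT boxes at -141, -138, -98 and -68 bp. ESPL1 held a CCAAT box at -48 bp and a CHR at -31 bp. PTTG1 held 3 CCAAT boxes, at -103, -51 and -48 bp, and no CHR in this window. FZR1, UBE2S and MAD2L1 held neither string in their 150 bases. Of all 35116 RefSeq promoter entries, 7.87% held a CHR and 23.5% a CCAAT box in the same window. The E2F strings TTTCCCGC, TTTCGCGC, TTTGCCGC and TTTGGCGC were in none of the 7 stretches, against 1.80% of all entries. Without their first T, they were in 1 of the 7, as TTCGCGC on the reverse strand of MAD2L1 at -105 bp, against 7.35% of all entries. These matches are letters only and show no binding.

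Rb lay at all 8 promoters after INX-315 in both lines, where a gene counted as bound when both libraries of the group held a promoter peak. Under DMSO, 5 of the 8 were bound in OVCAR-3 and 6 in Kuramochi. FBXO5, ESPL1, UBE2C, UBE2S and MAD2L1 had a peak in all 8 Rb libraries, CDC20 in 6, FZR1 in 5 and PTTG1 in 4. Over all protein-coding genes, 26.8% were bound in OVCAR-3 DMSO and 55.5% in OVCAR-3 INX-315, and in Kuramochi the shares were 24.9% and 53.2%. A peak in all 8 libraries was present at 18.8% of protein-coding genes. The IgG2a libraries had no peak at any of the 8 promoters. Of all protein-coding genes, only 3 had a promoter peak in the OVCAR-3 IgG2a library and 1 in the Kuramochi IgG2a library.

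A promoter was called gained in a line when a peak was present in the pair of INX-315 libraries and absent from the pair of DMSO libraries. CDC20, FZR1 and PTTG1 were gained in OVCAR-3, as were 16.2% of protein-coding genes, and PTTG1 alone of the 8 was gained in Kuramochi, as were 14% of protein-coding genes. PTTG1 was thereby gained in both lines, as were 5.56% of protein-coding genes. No member was lost. Losses were just as rare among all protein-coding genes, with 3 for Kuramochi (0.015%) and 1 for OVCAR-3 (0.00501%), so their absence does not set the members apart. The INX-315 lists were longer than the DMSO lists, with 13031 to 17281 peaks against 5221 to 8794, and their genome-wide mean coverage ran from 0.216 to 0.421 fragments per base against 0.380 to 0.501. When the lists of a line were cut to the same number of peaks, 6162 in OVCAR-3 and 5221 in Kuramochi, 5 members were bound under INX-315 in each line, beside 29% of protein-coding genes in OVCAR-3 and 25% in Kuramochi. CDC20 and FZR1 were then bound in neither line, UBE2S not in OVCAR-3 and ESPL1 not in Kuramochi. With equal lists PTTG1 was still gained in OVCAR-3, where 2.33% of protein-coding genes were, and in Kuramochi, where 2.03% were, and in all 44 protein-coding genes (0.22%) were gained in both lines. UBE2S then met the reverse rule in OVCAR-3, since its peaks ranked in the lists of both DMSO libraries and of neither INX-315 library, as did 215 protein-coding genes (1.08%).

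Signal at a promoter is given as the summit height, the number of fragments over the summit divided by the genome-wide mean coverage of the same library. The number of fragments was recovered from the fold enrichment and p-value of each peak. The member summits rested on 5 to 65 fragments under DMSO and on 5 to 115 under INX-315, so that heights at the low end move in coarse steps. In Kuramochi, for example, ESPL1, UBE2S and MAD2L1 each had 7 fragments in DMSO replicate 1 and 9 in DMSO replicate 2 and therefore the same heights. The exact 95% Poisson interval of 7 fragments in that library corresponds to heights of 6.32 to 32.4 and covers counting error only. The plot of heights by library shows the 8 genes side by side.

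**Figure D1:**
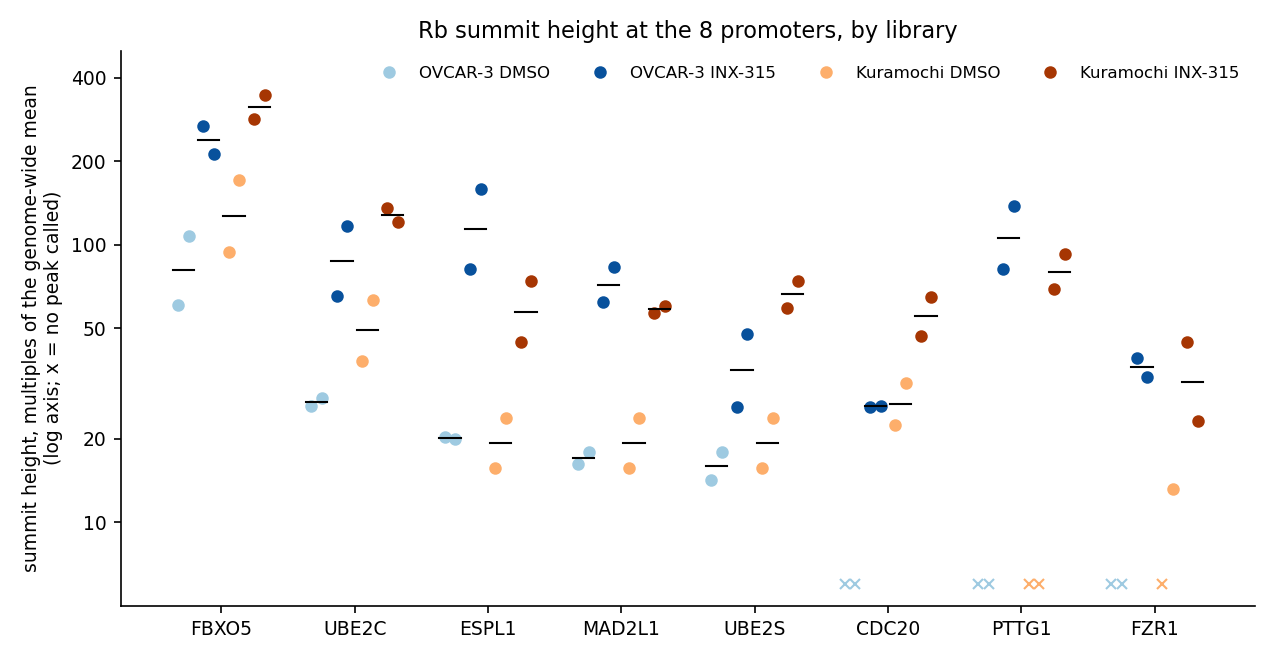
Summit height of Rb at the 8 promoters, as a multiple of the genome-wide mean coverage of each library (log axis). Points are the 2 libraries of each group, black bars are geometric means, and crosses at the bottom mark libraries without a called peak. FBXO5 stands highest in every group, and crosses occur only under DMSO, at CDC20, PTTG1 and FZR1.

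Of the inhibitors of the APC/C, FBXO5 carried the highest Rb signal of the 8 genes in every library. Its heights in OVCAR-3 were 60.6 and 108 under DMSO, against 268 and 212 with the inhibitor. In Kuramochi the DMSO heights were 94.4 and 171, and the INX-315 heights were 284 and 347. Both INX-315 libraries stood above both DMSO libraries in each line, as they did in 96.8% of the 3059 promoter regions compared below. That share is the background for the same remark at MAD2L1, UBE2C, UBE2S and ESPL1. The peak was also the widest, at 1365 to 2297 bp, and ranked between percentiles 96.2 and 99.7 of its library by p-value. Its region, chr6:152981970-152984320, had summits from -466 to -346 bp of the MANE start at chr6:152983041, upstream of that start and 72 to 192 bp inside the transcript of an alternative FBXO5 start. A lncRNA, ENSG00000227627, starts on the opposite strand between -709 and -290 bp, so that signal at FBXO5 and at this lncRNA cannot be told apart.

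MAD2L1, the checkpoint inhibitor of CDC20, had a much lower summit. In OVCAR-3 the DMSO heights were 16.2 and 17.9, and the INX-315 heights were 62.0 and 83.2. In Kuramochi the DMSO libraries gave 15.7 and 23.7, and the INX-315 libraries 56.8 and 60.2. The groups did not overlap in either line. The region, chr4:120066314-120067474, surrounds the start, with summits in a coding exon in 4 libraries, in the 5′ UTR exon in 2 and upstream in 2. The divergent lncRNA MAD2L1-DT has starts from -663 to -56 bp within the same region.

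Of the ubiquitin-conjugating enzymes, UBE2C had the second highest Rb signal under DMSO in both lines. In OVCAR-3 the DMSO heights were 26.3 and 27.9, and the INX-315 heights were 65.3 and 117. Kuramochi gave 38.2 and 63.2 with DMSO alone, against 136 and 120 with INX-315, and the groups again did not overlap. Local background at UBE2C was high in Kuramochi DMSO, at 3.13 and 2.49 fragments per base against genome-wide means of 0.445 and 0.380. The deposited fold enrichments in these DMSO libraries were only 4.36 and 7.16. In Kuramochi INX-315 the local background was also above the genome-wide mean, at 2.02 and 0.673 against 0.405 and 0.216. The summits of the region chr20:45812089-45813235 lay from -207 to 191 bp of the start.

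UBE2S had the lowest mean height of the 5 genes with a peak in every library in OVCAR-3. Its heights there were 14.1 and 17.9 under DMSO, against 26.1 and 47.6 under INX-315. In Kuramochi the DMSO heights were 15.7 and 23.7, and the INX-315 heights were 59.3 and 74.1. The INX-315 libraries stood above the DMSO libraries in both lines, by the smallest margin in OVCAR-3. Its summits in chr19:55407191-55408641 were all upstream of the start, from -556 to -211 bp, and no other annotated gene starts within 2000 bp.

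ESPL1, which encodes separase, had DMSO heights of 20.2 and 19.9 in OVCAR-3, and INX-315 heights of 81.6 and 159. In Kuramochi the DMSO heights were 15.7 and 23.7, while INX-315 gave 44.5 and 74.1. The groups did not overlap. Its region, chr12:53267807-53268713, was centred on the start, with summits from -48 to 168 bp and in the 5′ UTR exon in 5 of 8 libraries. In OVCAR-3 INX-315 replicate 2 a second, small peak of 4 fragments lay 11372 bp downstream, at an alternative start.

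PTTG1, which encodes securin, had no peak in any DMSO library. Under INX-315 its OVCAR-3 heights were 81.6 and 138, and its Kuramochi heights 69.2 and 92.6, in each of these libraries above the heights of UBE2S, CDC20 and FZR1. The 4 peaks were narrow, at 372 to 516 bp, with summits 68 to 165 bp downstream of the MANE start, in the first intron, in chr5:160421707-160422222. SLU7, a splicing factor gene, starts on the opposite strand at -144 bp, and all 4 peaks also lay in its promoter, so the signal cannot be assigned to 1 of the 2 genes. If the local background at PTTG1 scaled with coverage, the caller would have listed a summit of about 9 fragments in 3 of the DMSO libraries and 8 in the fourth, a height of 18.0 to 21.1. Over all regions with peaks in both treatments, the background scaled in this way had a median ratio of 0.984 to 1.00 between libraries. The middle 90% of regions lay inside 0.537 to 1.76. Libraries of a line were called against the same IgG2a library, so this ratio describes the background of the caller, not of the Rb libraries.

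The co-activators were among the genes with the lowest Rb signal under INX-315. CDC20 had no peak in OVCAR-3 DMSO and heights of 26.1 and 26.2 in OVCAR-3 INX-315. In Kuramochi its heights were 22.5 and 31.6 with DMSO, against 46.9 and 64.8 with INX-315. By the estimate used for PTTG1, a CDC20 summit of 8 fragments, a height of about 16, would have been listed in the OVCAR-3 DMSO libraries. The OVCAR-3 INX-315 summits of CDC20 held only 8 and 11 fragments, and the exact 95% Poisson interval of the replicate 1 height ran from 11.3 to 51.4. CDC20 summits in chr1:43358325-43359479 lay from -380 to -119 bp of the start, around the start of the divergent lncRNA CDC20-DT at -305 bp. A second peak followed downstream of the start in 1 INX-315 library of each line.

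FZR1 had heights of 39.2 and 33.3 in OVCAR-3 INX-315 and no peak in OVCAR-3 DMSO. In Kuramochi it had no peak in DMSO replicate 1 and a height of 13.2 on 5 fragments in DMSO replicate 2. The Kuramochi INX-315 heights were 44.5 on 18 fragments and 23.2 on 5 fragments. Without DMSO replicate 2, FZR1 would count as gained in Kuramochi as well, which raises the number of members gained in that line from 1 to 2, while the share of protein-coding genes gained there rises from 14% to 27%. FZR1 summits in chr19:3505580-3507220 lay from -168 to -67 bp, and no other gene starts within 2000 bp. Unlike CDC20, whose OVCAR-3 DMSO background was put at 1.54 and 1.56 fragments per base, FZR1 lay on a background at the genome-wide mean there, where 5 fragments would have been listed.

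**Figure D2:**
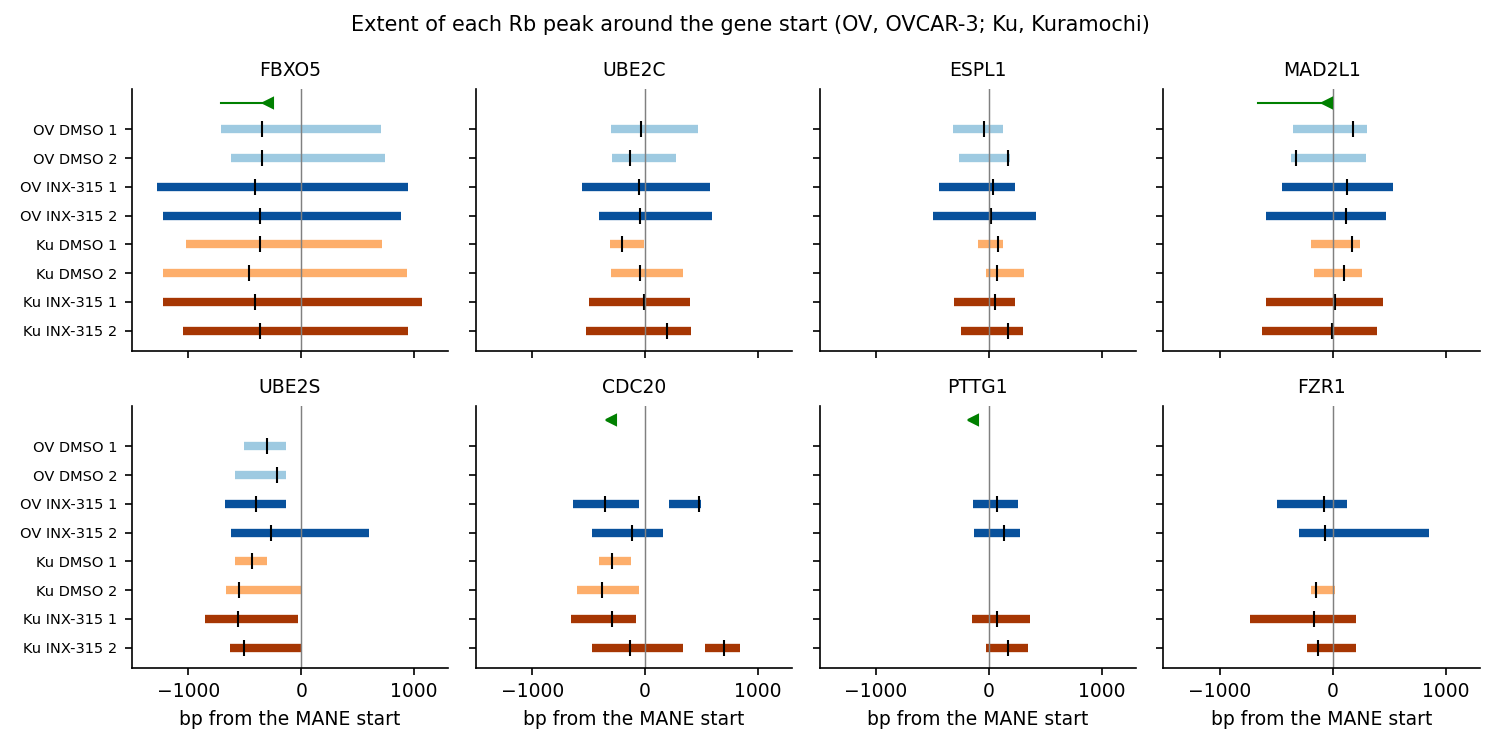
Extent of each Rb peak (bars) and its summit (black ticks) by distance in bp from the MANE start of the gene, with the direction of transcription to the right and 1 row per library. Green marks above the rows give the starts of neighbouring genes on the opposite strand. FBXO5 peaks are the widest and span the start, FBXO5, UBE2S and FZR1 summits lie upstream, and PTTG1 summits lie 68 to 165 bp downstream.

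FBXO5 led in each of the 4 groups, with both libraries above both libraries of the next gene, and in DMSO UBE2C followed, again without overlap. Under INX-315 the second gene was ESPL1 in OVCAR-3 and UBE2C in Kuramochi. In OVCAR-3 INX-315 the replicates of ESPL1, PTTG1, UBE2C and MAD2L1 overlapped from 1 gene to the next, as did those of FZR1, UBE2S and CDC20, with a gap between MAD2L1 and FZR1. In Kuramochi INX-315 those of PTTG1, UBE2S, MAD2L1, ESPL1 and CDC20 overlapped from 1 to the next, with FZR1 below them.

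To ask whether these increases exceeded the spread between replicates, log2 heights were fitted with limma over the 3059 promoter regions that had a peak in all 8 libraries, with p-values adjusted over all of them and a threshold of 0.1. All 5 members in the fit rose in both lines. In OVCAR-3 the log2 increase was 1.56 ± 0.403 (SE) for FBXO5, 1.69 ± 0.434 for UBE2C, 2.51 ± 0.431 for ESPL1, 2.08 ± 0.429 for MAD2L1 and 1.14 ± 0.426 for UBE2S. In Kuramochi it was 1.31 for FBXO5, 1.38 for UBE2C, 1.57 for ESPL1, 1.60 for MAD2L1 and 1.78 for UBE2S, with the same SEs. The largest limma adjusted p-value was 0.00794 in OVCAR-3, for UBE2S, and 0.00230 in Kuramochi, for UBE2C. Nearly every region rose, however, with 98.8% called higher in OVCAR-3, 95.4% in Kuramochi and 99.6% in the mean of both lines, and 96.8% of regions had both INX-315 heights above both DMSO heights in each line. A rise at the 5 members is therefore what almost all regions showed. UBE2S in OVCAR-3 rested on INX-315 replicate 2, without which its log2 increase was 0.71 (limma adjusted p = 0.135).

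The 5 members were next compared with the median region. The median log2 increase of all regions was 1.79 in OVCAR-3 and 1.52 in Kuramochi. In OVCAR-3, ESPL1 lay above 95.6% of regions and UBE2S above 8.43%. In Kuramochi, ESPL1 lay above 54.6% and UBE2S above 72.0%, so that neither kept its place. When every library was centred on its median region, none of the 5 passed the threshold in either line or in the mean of both. In OVCAR-3, 3.79% of regions were called higher and 8.01% lower, in Kuramochi 4.25% and 7.39%, and in the mean of both lines 8.53% and 14.8%. Centred log2 changes over both lines were 0.35 for ESPL1 (95% interval -0.08 to 0.79) and 0.15 for MAD2L1 (-0.29 to 0.59), and -0.26 for FBXO5 (-0.56 to 0.05), -0.15 for UBE2C (-0.52 to 0.21) and -0.22 for UBE2S (-0.69 to 0.24). Centring takes nearly the same value from every region, so these signs show only on which side of the median region each gene lay. At an unadjusted limma p under 0.05, centred ESPL1 was higher (0.67) and centred UBE2S lower (-0.69) in OVCAR-3. Of the 3059 regions, 683 met the same unadjusted cut-off in that line. The limma adjusted p-values of ESPL1 and UBE2S were 0.181 and 0.204.

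**Figure D3:**
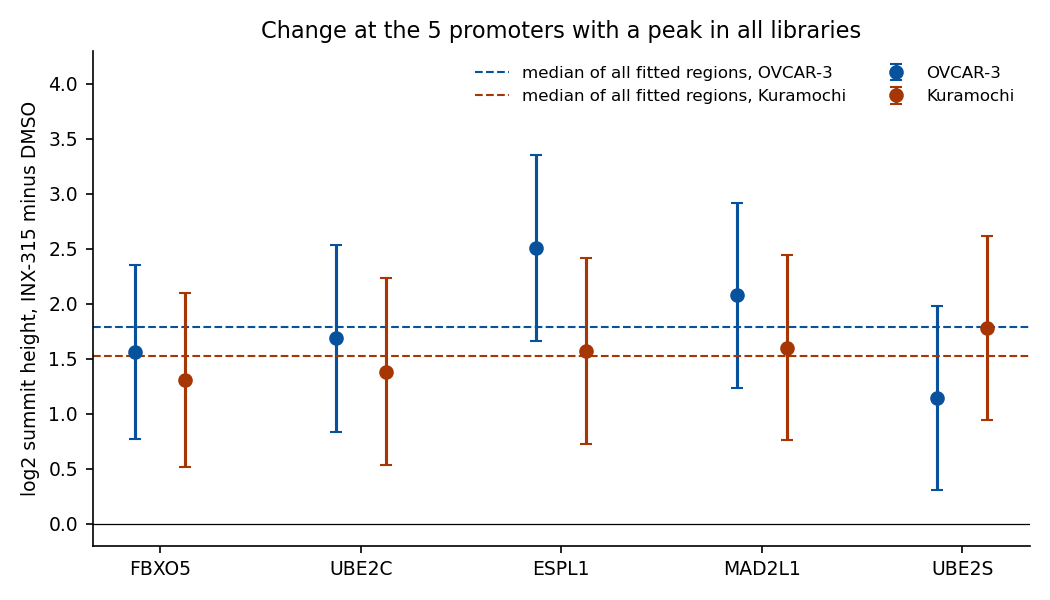
Log2 summit height under INX-315 minus DMSO for the 5 genes with a peak in all 8 libraries, by line, with 95% intervals of the limma fit. Dashed lines mark the median of the 3059 fitted promoter regions, 1.79 in OVCAR-3 and 1.52 in Kuramochi, and no interval reaches 0.

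No difference between the lines passed the test at these genes. The difference in log2 increase, OVCAR-3 minus Kuramochi, was 0.93 for ESPL1 (95% interval -0.26 to 2.13) and -0.63 for UBE2S (-1.82 to 0.55), and the limma adjusted p-value was 0.999 for all 5. Single libraries moved both values by more than 1.5 times. ESPL1 ran from 0.45 without OVCAR-3 INX-315 replicate 2 to 1.42 without replicate 1 of that group (unadjusted p = 0.0243, limma adjusted p = 0.687), and UBE2S from -1.07 to -0.20 without the same libraries. No region of the 3059 differed between lines in this fit, and 80 had an unadjusted p under 0.05. The ESPL1 interval reaches a difference of over 2 log2 units. In the exact two-sided permutation of treatment within lines, each of the 5 genes gave p = 0.0556, the smallest that the 36 arrangements allow, so this design cannot reach 0.05. Mean increases over both lines ranged from 2.70-fold (FBXO5) to 4.11-fold (ESPL1), all in the same direction in both lines. CDC20 could be fitted in Kuramochi alone, among 4239 regions, where its log2 height rose by 1.05 ± 0.425 (limma adjusted p = 0.0165), more than at 17.0% of those regions. In that fit 94.7% of regions were called higher.

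The place of each member among the called peaks of its library was described by a percentile rank on the p-value. This rank moves with depth and with the length of the list, and weak peaks added to a longer list raise the percentile of a site that has not changed, so ranks are given as positions within a library and no change is read from DMSO to INX-315. FBXO5 lay near the top of every list. In OVCAR-3, ESPL1 ranked at percentile 43.6 in both DMSO libraries and at 81.8 and 92.7 in the longer INX-315 lists, and MAD2L1 at 39.0 and 47.0 and at 76.1 and 78.4. UBE2S ranked at 24.0 and 45.8 with DMSO and at 34.6 and 58.4 with INX-315. In Kuramochi the percentiles of the DMSO libraries differed widely between replicates, at 16.9 and 46.7 for ESPL1 and at 33.4 and 71.9 for UBE2C. Among INX-315 peaks, PTTG1 ranked at percentiles 70.3 to 83.8, and CDC20 at 13.2 and 28.1 in OVCAR-3.

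**Figure D4:**
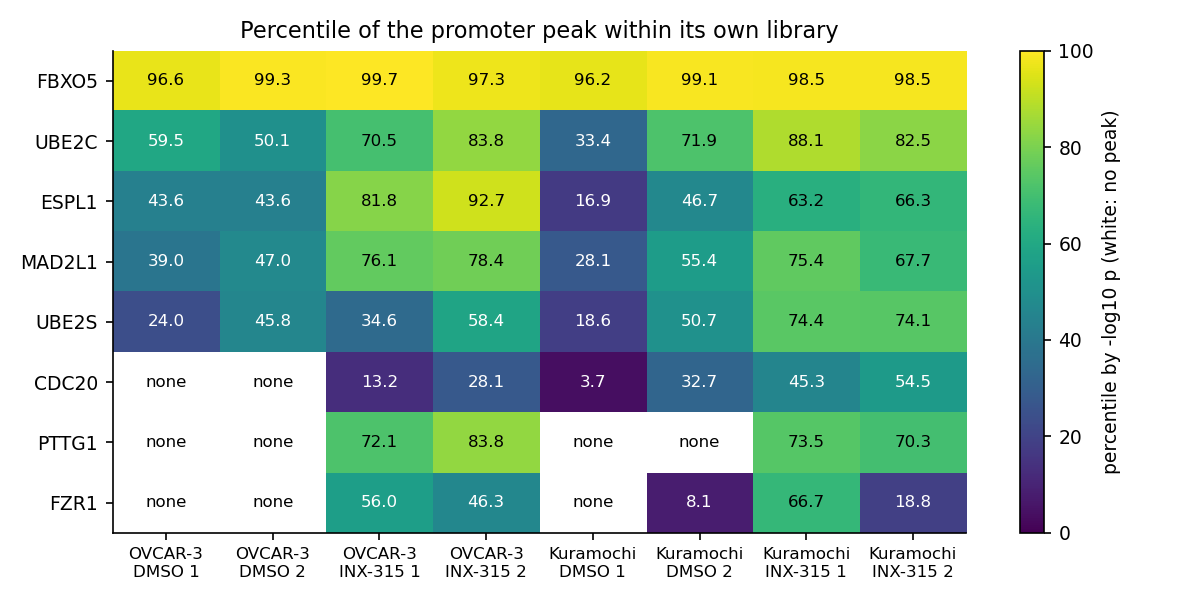
Percentile of the promoter peak of each gene among all peaks of the same library, ranked by p-value (colour and printed value, white cells have no peak). FBXO5 lies above 96 in all 8 libraries, and PTTG1 has no peak under DMSO and percentiles of 70.3 to 83.8 in the longer INX-315 lists.

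The genes whose percentile ranks over the 8 libraries were most like those of a member were found by the root mean square difference. A library without a promoter peak counted as percentile 0, so shared absences add to the likeness for CDC20, FZR1 and PTTG1. For FBXO5 they were BRIP1 (0.923 percentile points) and CREB3L4 (0.925). For PTTG1 they were ATP11A (4.26) and NEU3 (4.65), and for CDC20 SKP1 (4.60) and ENSG00000268400 (5.50). FZR1 was nearest to NUDT12 (5.92) and ARHGEF1 (6.07), MAD2L1 to TMCO4 (5.88) and MGME1 (6.24), and UBE2C to MNS1 (5.24) and BAMBI (5.43). The nearest patterns to ESPL1 were those of DLG3 (7.09) and PIK3CA (7.47), and to UBE2S those of STKLD1 and SURF4 (both 7.14). STKLD1 and SURF4 had identical percentiles in all 8 libraries, so they do not count as separate patterns.

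Around the Rb summits, CHR strings were present at 4 of the genes and E2F strings at none. Within 100 bp either side of the median summit of a gene, a CHR was present at FZR1, ESPL1, UBE2C and MAD2L1, 4 of 8, and in 4.89% of all 16143 promoter regions with a peak. A CCAAT box was present at UBE2C and UBE2S, 2 of 8, and in 17.7% of regions. None of the 8 windows held 1 of the 4 E2F strings, which 3.91% of regions held, nor the same strings without their first T, which 17.1% held. With 50 bp either side, only UBE2C still held a CHR (2.32% of regions), and with 250 bp either side 6 members held a CHR (13.2% of regions) and 7 a CCAAT box (37.6% of regions). The shorter E2F strings overlap the longer ones by construction, and at 250 bp MAD2L1 held 1, as did 37.0% of regions. Absence of a string says only that these letters were not in the window.

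The rest of the pathway was followed through 54 genes in 4 lists. The core subunits of the APC/C, which are the ligase itself, were bound under INX-315 at 13 of 14 promoters in OVCAR-3 and 12 of 14 in Kuramochi, against 8 and 5 under DMSO. ANAPC4, ANAPC16 and CDC16 were gained in OVCAR-3, and ANAPC2 and ANAPC4 in Kuramochi. The 5 subunits in the fit rose over both lines, from 1.17 log2 units at CDC23 and 1.54 at ANAPC11 to 1.66 at ANAPC5 and 2.08 at ANAPC10. After centring, only CDC23 passed the threshold, as lower (-0.52, limma adjusted p = 0.0366).

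Of 10 further spindle checkpoint genes, 8 were bound in OVCAR-3 and 9 in Kuramochi under INX-315, against 5 and 6 under DMSO. BUB1, ZW10 and ZWINT were gained in OVCAR-3 and BUB1B in Kuramochi. The 4 in the fit ranged from 0.62 log2 units at KNTC1 and 0.83 at MAD2L1BP to 1.68 at TRIP13 and 1.97 at BUB3. KNTC1 (-1.07, limma adjusted p = 1.03e-05) and MAD2L1BP (-0.85, limma adjusted p = 0.000821) were lower after centring.

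Cohesin and its regulators, the target of separase, were bound at 14 of 14 promoters in OVCAR-3 and 13 in Kuramochi under INX-315, against 8 and 11 under DMSO. CDCA5, ESCO1, PDS5B and SGO1 were gained in OVCAR-3 and ESCO1 in Kuramochi. The 8 in the fit had log2 increases from 1.01 at SMC1A and 1.24 at SMC3 to 1.79 at MAU2 and 1.85 at PDS5A. The core subunits SMC1A (-0.68, limma adjusted p = 0.00216) and SMC3 (-0.45, limma adjusted p = 0.0358) were lower after centring.

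Of 16 APC/C substrates, 15 were bound in each line under INX-315, against 8 in OVCAR-3 and 9 in Kuramochi under DMSO. AURKB was gained in both lines, HMMR and KIF20A were among those gained in OVCAR-3, and ANLN and CCNB2 were gained in Kuramochi. In the fit, increases ran from 1.11 at CDC6 and 1.34 at SKP2 to 1.78 at AURKA and 2.45 at CCNA2, the cyclin A gene. After centring CCNA2 was higher (0.76, limma adjusted p = 0.0123) and CDC6, an origin licensing gene, lower (-0.57, limma adjusted p = 0.00211). Median log2 increases over both lines were 1.62 for the core subunits, 1.26 for the checkpoint genes, 1.69 for cohesin and 1.61 for the substrates, beside 1.53 for the 5 members and 1.66 for all regions.

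**Figure D5:**
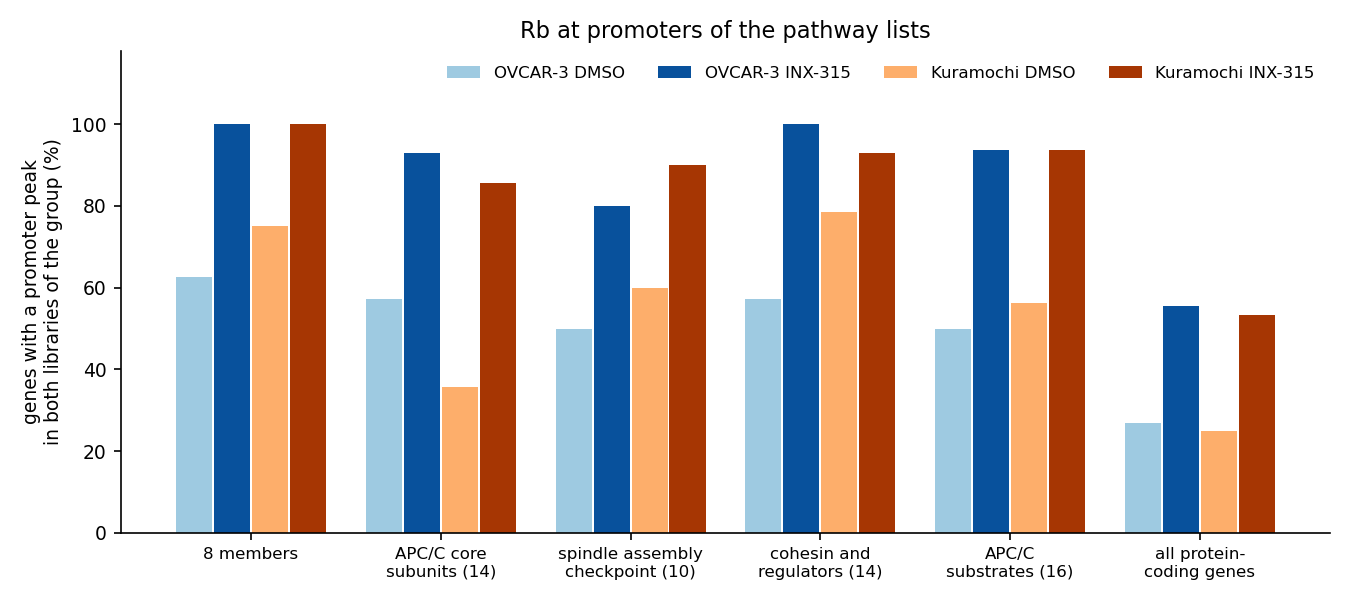
Percentage of genes with a promoter peak in both libraries of a group, for the 8 members, the 4 pathway lists (number of genes in brackets) and all protein-coding genes. Bars are the 4 groups of line and treatment, and all 8 members have a peak under INX-315 in both lines, where all protein-coding genes reach 55.5% and 53.2%.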

How the data were processed

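Rb CUT&RUN was analysed in 8 libraries with 2 IgG2a control libraries, grouped by the sample labels. The authors trimmed reads, aligned them to hg38 with Bowtie2 2.3.4.1, removed mitochondrial and blacklisted reads, kept duplicates, and called peaks in each library with MACS2 2.2.7.1 in paired-end mode at a q-value of 0.05 against the IgG2a library of the line. The deposited peak lists give a fold enrichment (a linear ratio over local background), a −log10 p-value, a −log10 q-value and an integer display score, which was not used. They hold no reads, so the count-based differential test of the study was not run, and total read depth per library is known only through the coverage below.

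The caller computes fold enrichment as (fragments + 1) / (background + 1) at the summit and the p-value from a Poisson tail with the same values. Solving both gave 1 whole fragment number, within a tolerance of 3e-05, for 98.6% to 100% of peaks per library, and the recovery was tested on simulated data. The most frequent background gave the genome-wide mean coverage. Overlapping Rb peaks were merged into 22760 regions, of which 16143 touched a promoter. Log2 heights were fitted with limma 3.58.1 (R 4.3.3, eBayes with trend) as 4 group means over 3059 regions, with Benjamini-Hochberg adjustment. In this fit the estimated variance was almost the same for all regions, so intervals reflect a spread shared between them. A region without a peak in some library has no height there, so CDC20, FZR1 and PTTG1 entered no fit over all libraries. Promoter strings were read from the reference genome (hg38) at the median summit of the Rb libraries, and from RefSeq promoters.

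The members and gene lists were chosen with earlier results of these data known, and no p-value was computed over a list. All 8 members are named. Other genes are named where they share a member's peak, are 1 of the 2 nearest in percentile pattern, or are within a list the 2 with the largest and the 2 with the smallest increase or up to 5 gained genes, by symbol. The shorter E2F strings and the 150-base windows were added after the data were seen. Alternatives covered the peak threshold, list length, promoter width, summit overlap, scaling, the replicate block, separate lines, the variance trend, window size and each library left out.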

Additional observations from a re-analysis of the deposited data

How the results depend on the processing

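With peaks of a q-value at most 0.001, FZR1 joined PTTG1, so that 2 members were gained in Kuramochi and 2 in both lines. Of protein-coding genes, 14.6% were then gained in Kuramochi and 6.46% in both lines. CDC20 then had no peak in Kuramochi DMSO replicate 1, so that 5 members were bound in Kuramochi DMSO. Leaving out each library in turn gave 1 to 2 members gained in Kuramochi and 1 to 2 gained in both lines. The higher number came without Kuramochi DMSO replicate 2, where 27% of protein-coding genes were gained in Kuramochi and 9.05% in both lines. With the same number of peaks per library, 5 members were bound in OVCAR-3 INX-315 (29% of protein-coding genes) and 5 in Kuramochi INX-315 (25%). Under DMSO 5 were then bound in OVCAR-3 (24.8%) and 5 in Kuramochi (21.8%). OVCAR-3 INX-315 replicate 2 held a promoter peak at 5 members (33.1%), and 1 member was gained in OVCAR-3 (2.33%). The narrower promoter and the summit rule changed none of the member counts.

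Centred on the median region, 0 members were called higher in OVCAR-3, in Kuramochi or in the mean of both lines. The centred log2 change was below 0 for FBXO5 (-0.27 in OVCAR-3, -0.24 in Kuramochi, -0.26 in the mean), UBE2C (-0.15, -0.16 and -0.15) and UBE2S (-0.69 in OVCAR-3, -0.22 in the mean), with exact permutation p = 0.333 for each mean. Over all regions, centring moved the calls in the mean of both lines from 3048 higher and 0 lower to 261 higher and 453 lower. The difference between lines changed sign for FBXO5 on centring (-0.038), without Kuramochi DMSO replicate 2 (-0.18) and without OVCAR-3 DMSO replicate 1 (-0.16), and reached 0.68 without Kuramochi DMSO replicate 1. For UBE2C it changed sign with the deposited fold enrichment (-0.086), without Kuramochi DMSO replicate 2 (-0.06) and without OVCAR-3 INX-315 replicate 2 (-0.11), and reached 0.72 without OVCAR-3 INX-315 replicate 1. None of these differences passed the threshold in any fit, and the cause was not tested.

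Replicate numbers were shared by the labels. Over 3059 regions, the replicate differences of DMSO and INX-315 libraries correlated at -0.05 in OVCAR-3 and -0.01 in Kuramochi. This correlation leaves out any shift of a whole library, so it cannot decide whether the libraries were paired. The median log2 difference of replicate 1 minus 2 was -0.22 (DMSO) and -0.55 (INX-315) in OVCAR-3. In Kuramochi it was -0.59 (DMSO) and -0.23 (INX-315). With the replicate number as a block, the same log2 increases were called at 5 of 5 members in each line. Of all 3059 regions, that fit called 3037 higher in OVCAR-3 and 2996 in Kuramochi. The exact permutation with the block gave p = 0.125, the smallest of its 16 arrangements. The deposited fold enrichment gave log2 increases from 0.77 (UBE2S in OVCAR-3) to 2.12 (ESPL1 in OVCAR-3), with 5 of 5 members called in each line. Of all 3059 regions, 2813 were called higher in OVCAR-3 and 2277 in Kuramochi in that fit. UBE2S in OVCAR-3 (limma adjusted p = 0.0972) and FBXO5 in Kuramochi (limma adjusted p = 0.0949) lay just under the threshold of 0.1. Windows of 50 bp left 1 member with a CHR (2.32% of regions), and windows of 250 bp gave 7 with a CCAAT box and 1 with a shorter E2F string. Low fragment numbers limit heights under both treatments, with 5 fragments at the lowest FZR1 summit in each.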
